A study of Mus musculus with 12 samples.

Results

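Glycam1, Madcam1, Ccl19, Ccl21a, Ccr7, Cxcl13, Cxcr5, Cr2, Fcer2a and Marco are 10 of the 54658 genes counted in these libraries, and they cover the vessels, T cell zone, follicles and sinuses of a lymph node. They were chosen from their measured levels in the same tumour and epithelium libraries that are described here, so the difference between the groups in these 10 genes is given as a description with no test. RNA sequencing was done on 9 mammary tumours of genotype Trp53R245W/+, which carried a somatic missense change in the tumour suppressor p53, and on 3 wild-type (WT) samples of epithelium enriched from mammary glands of the same cohort. All were from females of the C57BL/6J X BALB/cJ F1 hybrid. Tumours are named by their label numbers, 1, 4, 5, 14, 17, 20, 21, 24 and 27, and epithelium libraries by 1, 2 and 3. Genotype and the prefix of the sample titles followed the group, so neither can be told apart from tumour state. Whether the tumours were from separate mice is not stated in the labels, nor is it stated whether lymph nodes were taken out of the glands, and the spread between libraries is the only error measured.

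As background, lymphocytes enter a lymph node through high endothelial venules, whose sulphated glycoproteins, GlyCAM-1 among them, slow passing lymphocytes, while MAdCAM-1 is bound by the integrin alpha4beta7. Inside, stromal cells make CCL19 and CCL21, which draw CCR7-bearing T cells and dendritic cells into the T cell zone, and CXCL13, which draws CXCR5-bearing B cells into follicles. Follicular dendritic cells and B cells carry the complement receptor CR2, naive B cells carry the low-affinity IgE receptor FcεRIIa encoded by Fcer2a, and macrophages lining the sinuses carry the scavenger receptor MARCO. In bulk tissue, fewer cells of a type and less RNA per cell cannot be told apart.

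The libraries held 19695318 to 33600076 counts in genes, and a gene with 0 counts could still lie at up to 3 counts. On these plain library totals, 3 counts were 0.0893 to 0.152 counts per 1000000 (CPM). CPM of genes and lists here use library sizes scaled by the trimmed mean of M values, on which 3 counts in tumour 4 were 0.274 CPM. Tumour 4 stood apart, with 52.0% alignments that were not unique and 22.6% of gene counts from Rn7sk, a small nuclear RNA, against at most 2.09% in epithelium. Tumour 21 stood apart in its fibroblast markers, which summed to 31652 CPM against 1273 to 5592 CPM in the other tumours. The markers of the labelled tissue were present: 7 mammary epithelium genes summed to 2073 to 2934 CPM in epithelium and to 1384 to 6721 CPM in tumours. The epithelium libraries also held 1489 to 1932 CPM from 18 B cell genes and 1753 to 1884 CPM from 18 genes of naive and central memory T cells.

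All 10 genes passed the filter on low counts, and 8 of them were lower in every tumour than in every epithelium library. The same held for 14.1% of the 21456 genes tested, but since this contrast chose the 10 genes, nothing is read from that. Their median log2 fold change, tumour minus epithelium, was -6.84 (range -10.37 to -1.86) beside 0.17 over all genes. Cxcl13 and Madcam1 were the exceptions, with levels in some tumours inside or above the epithelium range. With plain library totals in place of scaled sizes, 9 of the 10 were lower in every tumour, and Madcam1 alone overlapped. In tumours the counts were low: 28 of the 90 values were at 3 counts or fewer, and 10 of these were 0.

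**Figure D1:**
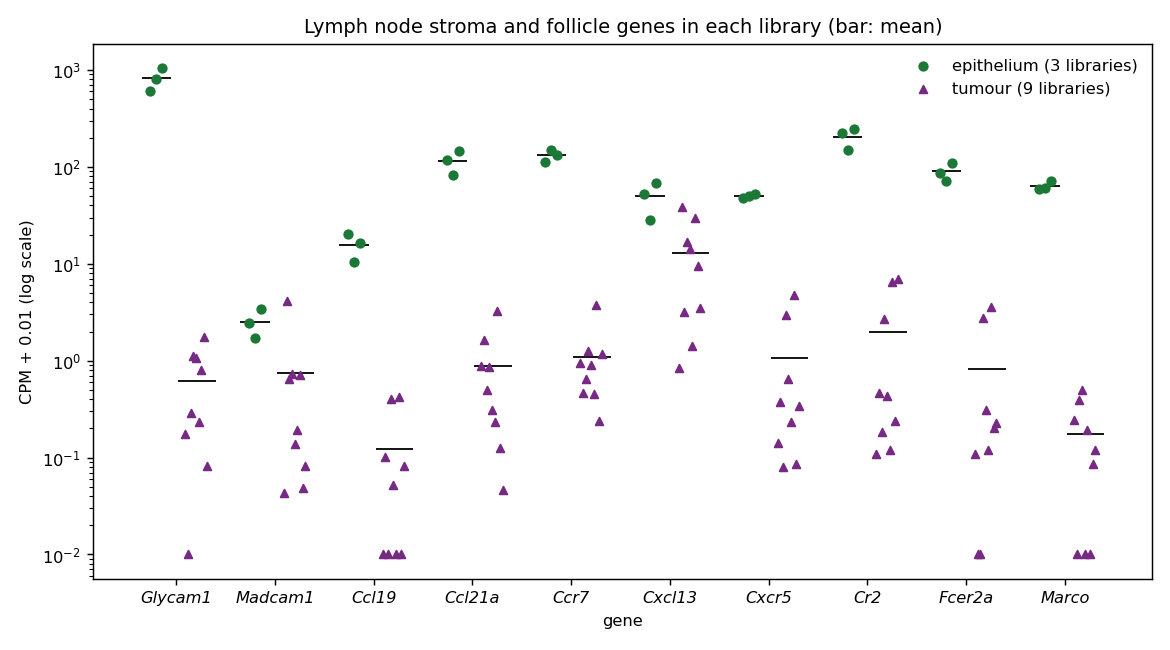
Level of each gene in CPM plus 0.01 on a log scale, 1 point per library (circles: 3 epithelium libraries; triangles: 9 tumours), with a bar at each group's mean. For 8 genes all tumours lie below all epithelium libraries, whereas Madcam1 in tumour 4 and Cxcl13 in tumours 4 and 21 reach the epithelium range.

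Glycam1, which encodes a mucin-like glycoprotein of these venules and lies at chr15:103562759-103565081 on the minus strand of GRCm38, had the highest level per length of the 10 genes in epithelium. Its level was 614, 805 and 1041 CPM in epithelium libraries 1, 2 and 3, from 17728, 23146 and 30781 counts. In the tumours it ran from 0 in tumour 4 through a median of 0.280 to 1.73 CPM in tumour 24, the last from 45 counts. The lowest epithelium library was 355 times the highest tumour, and the means were 820 ± 214 CPM (SD, n = 3) against 0.604 ± 0.598 CPM (SD, n = 9), with a log2 fold change of -10.37 (SE 0.83). Glycam1 is also known as a milk protein of the mammary gland. The 10 genes of milk and secretory differentiation summed to 332 to 450 CPM in epithelium and to 169 to 6703 CPM in tumours, with a median of 1405 CPM, and none of the 9 tested passed in either direction in edgeR. At an unadjusted p under 0.05, 1 was lower (Btn1a1) and 1 higher (Wap); DESeq2 called 1 lower and 2 higher, and limma-voom 1 lower and 0 higher. The tumour with the most milk gene RNA, tumour 17, had 25 Glycam1 counts, and the one with the least, tumour 1, had 5.

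Madcam1, the mucosal addressin at chr10:79664559-79668537 on the plus strand, had the lowest level per length in epithelium, and its levels were 2.46, 1.70 and 3.41 CPM from 71, 49 and 101 counts. In tumours it ran from 0.0332 CPM in tumour 1 through a median of 0.184 to 4.11 CPM in tumour 4, where it had 45 counts. Tumour 4 exceeded all 3 epithelium libraries, and the other 8 tumours, at no more than 0.724 CPM, lay below all of them. By plain library totals, with 45 of 19695318 counts, tumour 4 exceeded epithelium library 2 but lay below libraries 1 and 3. The log2 fold change was -1.86 (SE 1.06) with tumour 4 and -2.99 without it, so that library alone sets the overlap.

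The 250 bases before the Madcam1 start (RefSeq, GRCm38.p6, chr10:79664309-79664558, plus strand) are shown because they hold a pair of NF-kB consensus matches, in capitals, and lymphotoxin signals through NF-kB in stromal cells. The Cxcl13 stretch (chr5:95956689-95956938, plus strand) is set beside it as the other gene whose tumour levels overlapped epithelium, with a TATAAA match in capitals.
Madcam1: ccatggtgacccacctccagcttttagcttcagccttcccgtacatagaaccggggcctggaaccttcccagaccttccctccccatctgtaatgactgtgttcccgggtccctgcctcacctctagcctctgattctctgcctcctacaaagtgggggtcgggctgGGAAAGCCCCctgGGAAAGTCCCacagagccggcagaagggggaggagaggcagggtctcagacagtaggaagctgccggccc
Cxcl13: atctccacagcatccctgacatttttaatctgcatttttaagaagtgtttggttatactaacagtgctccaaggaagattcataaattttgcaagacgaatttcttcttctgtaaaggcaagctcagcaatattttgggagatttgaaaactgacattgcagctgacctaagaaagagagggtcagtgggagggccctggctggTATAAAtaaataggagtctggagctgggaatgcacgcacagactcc
Both NF-kB matches in Madcam1 were read on the minus strand, at -83 to -74 and -70 to -61 from the start, and the TATAAA in Cxcl13 lies at -46 to -41 on the plus strand. Both strands were searched for the NF-kB consensus and for TATAAA, and no matches of these motifs overlapped in these windows. Of 32851 promoter windows of this length, 7.25% held the NF-kB consensus and 12.4% held TATAAA, so such matches are a description only. Of the other genes with a RefSeq window (Glycam1, Ccl19, Ccl21a, Cr2, Fcer2a and Marco), 1 of 3 windows of Fcer2a held TATAAA, at -33 to -28, and none held the NF-kB consensus.

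Some other genes of high endothelial venules were lower in tumours as well. Of 12 tested genes of this list, 5 fell and none rose in edgeR's quasi-likelihood test at an adjusted p under 0.05, with a median log2 fold change of -1.11. Over all genes 11.4% fell and 8.89% rose. In this list and in those of B cells, T cells, dendritic cells, stroma and blood and lymphatic endothelium, the count of higher genes was 0 in edgeR, also at an unadjusted p under 0.05, in DESeq2 and in limma-voom. Chst4, a sulphotransferase that modifies glycoproteins of these venules, had 546 counts over the 3 epithelium libraries and 3 over the 9 tumours, 2 of them in tumour 14, a ratio of 477 per sequenced depth with an exact 95% counting interval of 162 to 2318 (adjusted p = 2.47e-05, edgeR). Its fitted log2 fold change, which at so few counts depends on the prior count, was -8.46 with all libraries and -9.30 without tumour 14. The counting interval pools the counts of each group and leaves out the spread between libraries, which for Chst4 in epithelium ran from 97 to 271 counts. Selp, the endothelial P-selectin, fell from 129 ± 47.0 to 2.48 ± 2.69 CPM (-5.71 on the log2 scale, SE 0.68, edgeR adjusted p = 0.000133), and by 6.30 on the log2 scale without tumour 21. Sele, Ackr1 and the fucosyltransferase gene Fut7 were the other 3 that fell. The genes not called went both ways. The log2 fold change was 1.54 for B3gnt3, 1.06 for Gcnt1, 1.03 for Chst2 and 0.12 for Fut4. It was -1.32 for Cd34, -0.90 for Emcn and -0.75 for Podxl. The list sum was 602 to 707 CPM in epithelium and 185 to 576 CPM in tumours, and Glycam1 came to 102 to 165% of that sum in epithelium but to at most 0.541% in any tumour. Madcam1 was 0.241 to 0.542% of it in epithelium, below that range in 7 tumours and above it in tumour 4, at 1.71%. Blood endothelial markers moved the same way, with 6 of 10 lower and none higher, among them Pecam1, the junction protein CD31 (378 ± 18.1 to 88.1 ± 32.1 CPM, edgeR adjusted p = 0.000325). Their sum was 975 to 1219 CPM in epithelium and 207 to 833 CPM in tumours. Its part in the values of Glycam1 and Madcam1 was not tested.

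Both ligands of the T cell zone and their receptor were lower in every tumour than in every epithelium library, and Ccl19 was at 3 counts or fewer in 7 of 9 tumours. Ccl19 (chr4:42754525-42756577, minus strand), a chemokine ligand of CCR7, stood at 20.4, 10.5 and 16.4 CPM in epithelium, from 590, 302 and 484 counts. In tumours its median was 0.0424 CPM, 4 of 9 had 0 counts, and the highest values were 12 counts in tumour 14 and 10 in tumour 21. No tumour came near the lowest epithelium library (15.8 ± 5.0 against 0.113 ± 0.169 CPM; log2 fold change -7.06, SE 0.99).

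Ccl21a (chr4:42772860-42773993, minus strand), the other CCR7 ligand and the one that binds strongly to vessel and stromal surfaces, was at 118, 82.3 and 147 CPM in epithelium. Tumours ran from 0.0363 CPM, 1 count, in tumour 27 through a median of 0.490 to 3.28 CPM, 79 counts, in tumour 21. The groups did not overlap (116 ± 32.2 against 0.866 ± 1.03 CPM; log2 fold change -7.08, SE 0.85), and without tumour 21 the log2 fold change was -7.73. Counts of both chemokines are uncertain, because the genome holds near copies of each. Of 50-base stretches of exon sequence, 52.0% of the 914 in Ccl19 and 71.6% of the 821 in Ccl21a also occur in other annotated genes, among them Ccl21b, which was listed at 0 in all 12 libraries. Alignments that were not unique made up 8.59 to 12% in epithelium and 17.1 to 52.0% in tumours, and their part in these 2 genes was not tested. The other 8 genes shared no such stretch, except Fcer2a at 1.16%.

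Ccr7 (chr11:99144196-99155077, minus strand), the receptor that takes T cells and mature dendritic cells to these ligands, was at 113, 149 and 133 CPM in epithelium. Tumours ran from 0.231 CPM in tumour 24 through a median of 0.890 to 3.73 CPM in tumour 21, from 6 and 90 counts at the ends. Ccr7 had at least 5 counts in every tumour, and still the highest tumour was far below the lowest epithelium library (132 ± 17.9 against 1.08 ± 1.05 CPM; log2 fold change -6.91, SE 0.60).

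The cells that carry Ccr7 were represented by a T cell list, which fell throughout, and a dendritic cell list, which fell only in part. All 18 genes of naive and central memory T cells fell, with a median log2 fold change of -4.95. Lck, the kinase of T cell receptor signalling, fell from 92.7 ± 6.98 to 3.09 ± 1.61 CPM (-4.91 on the log2 scale, SE 0.47, edgeR adjusted p = 4.23e-05), and Il7r, the IL-7 receptor chain, from 152 ± 19.0 to 6.04 ± 3.47 CPM (edgeR adjusted p = 6.37e-05). The list summed to 1753 to 1884 CPM in epithelium and 46.4 to 99.9 CPM in tumours. Ccr7 came to 6.44 to 8.07% of that sum in epithelium and to 0.394 to 3.74% in tumours, so all 9 tumours were lower on this ratio too. Of 14 dendritic cell genes 6 fell and none rose, among them Il4i1, an amino acid oxidase of mature dendritic cells (37.5 ± 11.7 to 2.53 ± 1.64 CPM, edgeR adjusted p = 0.000181), and the maturation marker Cd83 (139 ± 19.7 to 10.5 ± 6.45 CPM, edgeR adjusted p = 0.000256). The other 8 dendritic cell genes were not called, and the median log2 fold change of the list was -1.36. The dendritic sum ran from 479 to 573 CPM in epithelium and from 155 to 716 CPM in tumours. These ranges overlapped, and the highest tumour, tumour 1, exceeded all epithelium libraries. Ccl19 was 2.11 to 4.27% of it in epithelium and at most 0.255% in tumours.

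Lymphatic endothelium, which makes CCL21 as well, had 3 of 6 markers lower (Prox1, Lyve1 and Mmrn1) and none higher. Reln, its marker of highest CPM, was at 39.4 ± 11.1 CPM in epithelium and 38.3 ± 64.9 CPM in tumours (edgeR adjusted p = 0.988). The summed markers were 110 to 125 CPM in epithelium and 18.5 to 172 CPM in tumours. Ccl21a was 66.0 to 133% of that sum in epithelium and 0.0212 to 6.88% in tumours. Tumours 20 and 27, whose sums of 168 and 172 CPM exceeded epithelium, had 6 and 1 Ccl21a counts. Reln alone reached 155 CPM in its highest tumour, against a tumour median of 5.47 CPM, so a large sum can rest on this 1 marker.

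Among the other lymphoid guidance genes, 4 of 11 tested fell and none rose, with a median log2 fold change of -1.11. S1pr1, the receptor by which lymphocytes leave the node, fell from 247 ± 9.16 to 29.6 ± 13.0 CPM (-3.06 on the log2 scale, SE 0.32, edgeR adjusted p = 6.77e-05). Gpr183, the oxysterol receptor that positions B cells, fell from 70.7 ± 7.50 to 4.56 ± 2.74 CPM (-3.95 on the log2 scale, SE 0.42, edgeR adjusted p = 7.06e-05). Cxcl12 and the CCL20 receptor gene Ccr6 were the other 2. Of genes with higher levels, 1 (Hsd3b7) had an unadjusted p under 0.05, and 0 were called by edgeR, DESeq2 or limma-voom. The list summed to 739 to 844 CPM in epithelium and 115 to 416 CPM in tumours.

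Follicle genes showed 2 patterns. The 3 genes carried by B cells were lower in every tumour than in every epithelium library. The chemokine gene Cxcl13 overlapped between the groups on scaled library sizes. Cxcr5 (chr9:44511787-44561877, minus strand), the CXCL13 receptor of B cells and follicular helper T cells, was at 48.2, 49.9 and 51.9 CPM in epithelium. Tumours ran from 0.0701 CPM in tumour 5 through a median of 0.327 to 4.73 CPM in tumour 21, and tumours 14 and 21, with 90 and 114 counts, were the only ones above 15 counts. The epithelium libraries were close to each other and did not overlap the tumours (50.0 ± 1.85 against 1.06 ± 1.65 CPM; log2 fold change -5.55, SE 1.02, and -6.35 without tumour 21).

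Cr2 (chr1:195136811-195176716, minus strand), which binds complement-coated antigen, was at 222, 149 and 244 CPM in epithelium. Tumours ran from 0.0997 CPM in tumour 1 through a median of 0.424 to 6.97 CPM in tumour 27. Tumour 27 had 192 counts of Cr2, tumour 21 had 155 and tumour 14 had 82, whereas the other 6 had 3 to 10. The groups did not overlap (205 ± 49.8 against 1.95 ± 2.81 CPM; log2 fold change -6.70, SE 1.12). Tumour 27 had 9 counts of Cxcr5 and 6 of Fcer2a.

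Fcer2a (chr8:3681737-3694175, minus strand), the receptor CD23 of naive follicular B cells, was at 87.3, 71.0 and 111 CPM in epithelium. Tumours ran from 0 in tumours 4 and 5 through a median of 0.192 to 3.61 CPM in tumour 21. Tumours 14 and 21 had 83 and 87 counts and no other tumour had more than 7 (89.7 ± 20.1 against 0.806 ± 1.36 CPM; log2 fold change -6.77, SE 1.16, and -7.54 without tumour 21).

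Cxcl13 (chr5:95956951-95961068, plus strand), the B cell chemokine, was at 52.8, 28.4 and 67.6 CPM in epithelium. In tumours 1, 4, 5, 14, 17, 20, 21, 24 and 27 it was at 0.831, 38.1, 3.19, 16.7, 14.1, 1.40, 29.8, 9.57 and 3.45 CPM, from 25 to 719 counts. Tumours 4 and 21 exceeded epithelium library 2, and the other 7 lay below all epithelium libraries. By plain library totals no tumour exceeded it: tumour 21 had 719 of 21936503 counts and epithelium library 2 had 816 of 24247566. The log2 fold change of -1.93 (SE 0.86) was near that of Madcam1 and far from the other 8 genes, which lay at -5.55 or below (49.6 ± 19.8 against 13.0 ± 13.3 CPM).

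**Figure D2:**
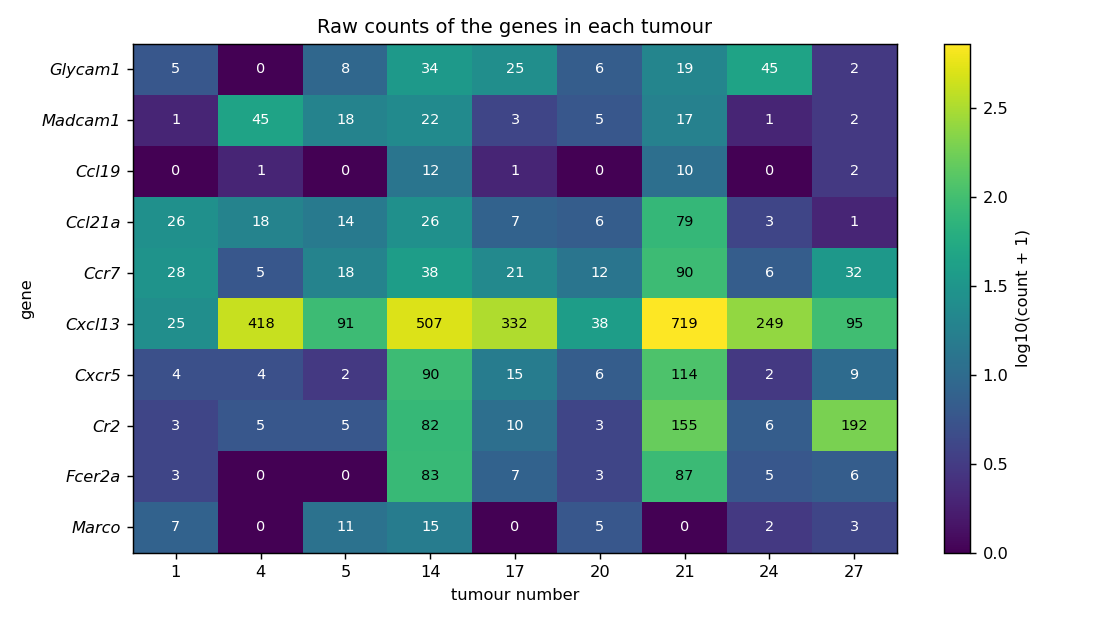
Raw counts of the 10 genes (rows) in the 9 tumours (columns), with the count written in each cell and the colour giving log10(count + 1). Cxcr5, Cr2 and Fcer2a are high in tumours 14 and 21, Cr2 also in tumour 27, and Cxcl13 has 25 or more counts in every tumour.

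B cell genes as a whole were lower in the tumours. Of 18 tested, 17 fell, none rose, and Cd72 did not pass (59.5 ± 6.81 against 33.7 ± 27.6 CPM, edgeR adjusted p = 0.362), with a median log2 fold change of -4.87 over the list. Cd22, an inhibitory co-receptor of the B cell receptor, fell from 171 ± 26.4 to 6.35 ± 4.77 CPM (-4.74 on the log2 scale, SE 0.50, edgeR adjusted p = 7.01e-05), and the B cell scaffold gene Bank1 from 223 ± 37.4 to 3.95 ± 4.82 CPM (edgeR adjusted p = 0.000368). The list summed to 1489 to 1932 CPM in epithelium and to 73.0 to 350 CPM in tumours, the highest being tumour 21 and the median 110 CPM. Against that sum, the 4 follicle genes differed from one another. Cxcr5 was 2.62 to 3.35% of it in epithelium and 0.0678 to 2.05% in tumours. Fcer2a was 4.74 to 5.74% in epithelium and 0 to 1.89% in tumours, and Cr2 was 9.98 to 12.6% in epithelium and 0.0909 to 8.28% in tumours, the highest being tumour 27. All 9 tumours were thus below all epithelium libraries for these 3 genes relative to this sum. Cxcl13 went the other way in most tumours: it was 1.91 to 3.50% of the B cell sum in epithelium and 0.758 to 25.2% in tumours, with 6 tumours above every epithelium library and 2 below. These ratios use the contrast by which the genes were chosen and carry no test. They also depend on the genes summed: Cd72 alone was 92.0 CPM of the 151 CPM in tumour 4. Beside a single B cell gene, Ms4a1, with a log2 fold change of -5.54, Cxcr5 was at -5.55, Cr2 at -6.70 and Fcer2a at -6.77. The ratios are therefore not a measure of level per B cell.

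**Figure D3:**
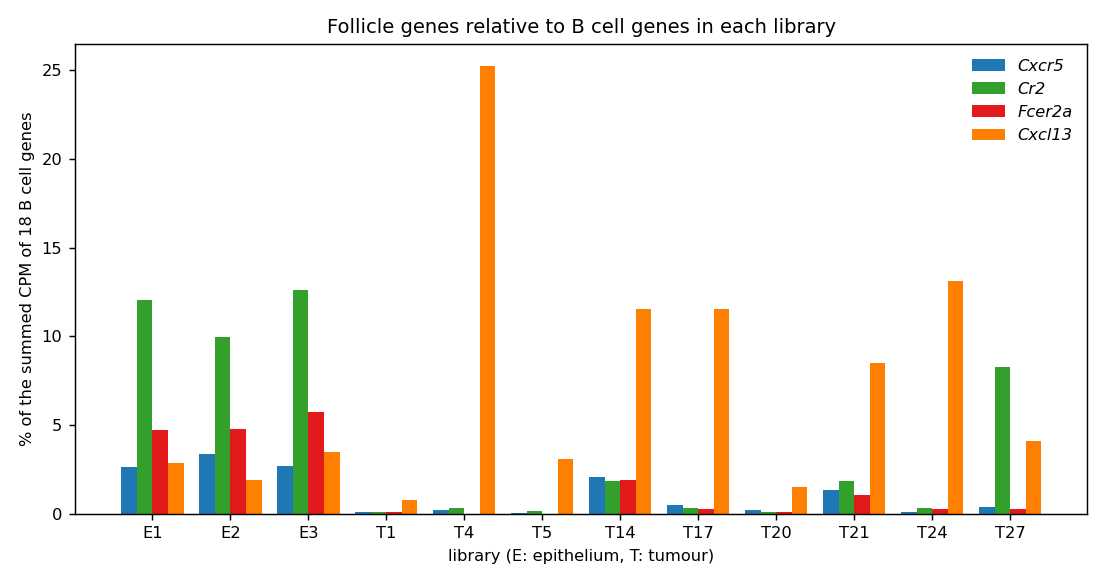
CPM of Cxcr5, Cr2, Fcer2a and Cxcl13 as a percentage of the summed CPM of 18 B cell genes (vertical axis) in each library (E: epithelium, T: tumour). Bars are not scaled by gene length and compare libraries within a gene: Cxcr5, Cr2 and Fcer2a are lower in all 9 tumours than in epithelium, and Cxcl13 is above epithelium in 6 tumours, up to 25.2% in tumour 4.

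Germinal centre genes were mixed, with 4 of 8 tested lower and 1 higher. Gcsam, a germinal centre B cell signalling protein, fell from 5.30 ± 0.561 to 0.195 ± 0.157 CPM (-4.74 on the log2 scale, SE 0.53, edgeR adjusted p = 9.22e-05), and the IL-21 receptor gene Il21r from 70.8 ± 8.97 to 5.62 ± 4.26 CPM (edgeR adjusted p = 0.000385). Sh2d1a and Rgs13 were the other 2, the latter from 48 counts in epithelium and 3 in tumours. S1pr2, which confines germinal centre B cells and is also made outside the lymphoid lineage, rose from 20.3 ± 2.23 to 55.6 ± 25.0 CPM (edgeR adjusted p = 0.0422), but it failed in 11 of 18 alternatives, including without each epithelium library and without tumours 5, 14, 17 or 24, with adjusted p up to 0.156. The list summed to 137 to 155 CPM in epithelium and 60.1 to 147 CPM in tumours.

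Upstream of the follicle, the lymphotoxin, BAFF and alternative NF-kB list had 5 of 14 genes lower and 1 higher. Lta, which encodes lymphotoxin alpha, fell from 4.66 ± 1.12 to 0.182 ± 0.133 CPM (-4.64 on the log2 scale, SE 0.64, edgeR adjusted p = 0.000342). Tnfrsf13c, the BAFF receptor of B cells, fell from 29.2 ± 5.03 to 1.05 ± 1.23 CPM (edgeR adjusted p = 0.000994). Ltb, Tnfrsf14 and Relb also fell. The receptor gene Ltbr, which stroma and epithelium carry, rose from 41.6 ± 1.98 to 90.6 ± 18.9 CPM (1.12 on the log2 scale, SE 0.24, edgeR adjusted p = 0.00565), and no tumour overlapped epithelium. Without epithelium library 3 the list had 3 lower genes. The sum was 459 to 497 CPM in epithelium and 249 to 498 CPM in tumours.

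Reticular and follicular dendritic stroma genes were mostly not called, with 3 of 14 lower and none higher, a median log2 fold change of -0.45, and 5 lower without tumour 27. Enpp2, the autotaxin of reticular cells, which adipocytes also make, fell from 315 ± 56.9 to 11.4 ± 6.54 CPM (-4.79 on the log2 scale, SE 0.55, edgeR adjusted p = 0.000109). Coch, made by follicular dendritic cells, fell from 7.10 ± 0.358 to 0.122 ± 0.313 CPM (-5.80 on the log2 scale, SE 1.19, edgeR adjusted p = 0.00458). Most of the tumour signal of Coch was in tumour 21, at 0.954 CPM, and leaving that tumour out gave a log2 fold change of -8.20. The adhesion molecule Icam1 was the other gene that fell. Stroma genes not called went both ways. The log2 fold change was 1.60 for Pdpn, 0.98 for Mfge8, 0.78 for Bst1 and 0.71 for Fcgr2b. It was -1.51 for Vcam1, -1.05 for Il33, -0.57 for C4b, -0.47 for Grem1, -0.42 for Il7, -0.19 for Clu and -0.18 for Pdgfrb. The list summed to 2094 to 2294 CPM in epithelium and 918 to 3249 CPM in tumours, and general fibroblast markers had 0 of 6 called in edgeR, 2 lower at an unadjusted p under 0.05 (Dcn and Pdgfra), and 3 lower in both DESeq2 and limma-voom. Among these, the collagen gene Col3a1 was at 2184 ± 541 and 3075 ± 5523 CPM (edgeR adjusted p = 0.755). Plasma cell markers had 3 of 7 lower and none higher in edgeR, with 1 higher (Sdc1) at an unadjusted p under 0.05, 1 called higher by DESeq2 and 0 by limma-voom. They summed to 405 to 428 CPM in epithelium and 218 to 1058 CPM in tumours, and Xbp1, the marker of highest CPM, was at 180 ± 17.5 and 348 ± 233 CPM (edgeR adjusted p = 0.276). Adipocyte markers had 1 of 5 lower, the lipase gene Lpl (122 ± 27.3 to 22.5 ± 10.2 CPM, edgeR adjusted p = 0.00110), and summed to 104 to 154 CPM in epithelium and 8.39 to 57.6 CPM in tumours.

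**Figure D4:**
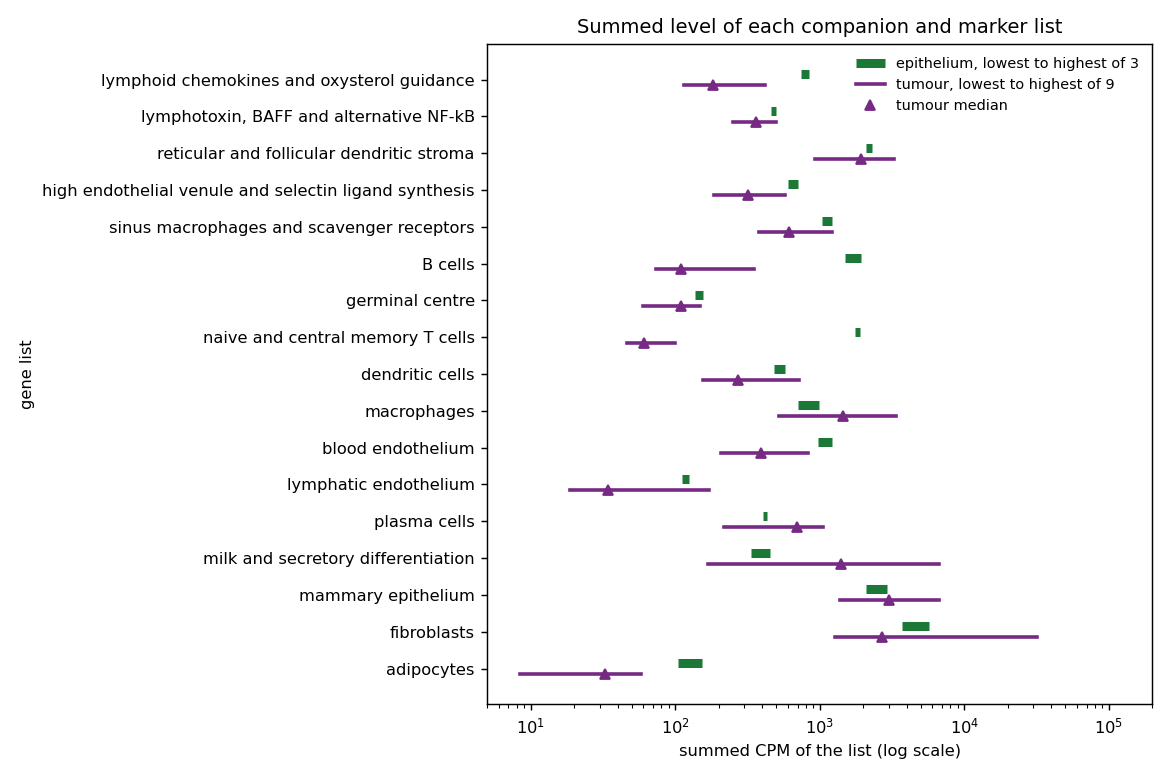
Summed CPM (log scale) of each gene list, as the range over 3 epithelium libraries (thick bar) and over 9 tumours (thin line, triangle at the median). Naive and central memory T cell genes and B cell genes lie furthest apart between the groups, while the stroma, milk and mammary epithelium ranges overlap.

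Marco (chr1:120474538-120505024, minus strand), a scavenger receptor of sinus and marginal zone macrophages, was at 59.0, 59.9 and 71.0 CPM in epithelium, from 1704, 1724 and 2100 counts. Tumours ran from 0 in tumours 4, 17 and 21 through a median of 0.109 to 0.494 CPM in tumour 14, which had 15 counts. The groups were far apart (63.3 ± 6.67 against 0.165 ± 0.178 CPM; log2 fold change -8.46, SE 0.78). Unlike the follicle genes, Marco was not high in tumour 21. Other sinus macrophage and scavenger genes were split, with 4 of 14 lower, none higher and a median log2 fold change of 0.32. Msr1 and Vsig4 were higher at an unadjusted p under 0.05, and 2 genes were called higher by DESeq2 and 0 by limma-voom. Timd4, a phosphatidylserine receptor of resident macrophages, fell from 85.5 ± 13.4 to 0.626 ± 0.353 CPM (-7.07 on the log2 scale, SE 0.43, edgeR adjusted p = 3.90e-06). Stab2, a hyaluronan receptor of sinus endothelium, fell from 47.3 ± 2.62 to 1.11 ± 0.439 CPM (edgeR adjusted p = 8.30e-06), and Siglec1 and Cd36 were the other 2. Without tumour 20 the list had 1 higher gene and without tumour 27 it had 2. The list summed to 1041 to 1212 CPM in epithelium and 377 to 1208 CPM in tumours. Marco was 4.87 to 6.82% of it in epithelium and at most 0.123% in tumours. General macrophage markers had 4 of 8 higher (C1qa, C1qb, C1qc and Fcgr1) and none lower in edgeR, also at an unadjusted p under 0.05, in DESeq2 or in limma-voom, and summed to 701 to 989 CPM in epithelium and to 518 to 3381 CPM in tumours. Lyz2, their gene of highest CPM, was at 506 ± 144 and 510 ± 384 CPM (edgeR adjusted p = 0.992).

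Levels can be compared between genes only per length. In epithelium, mean CPM per kb of exon was 384 for Glycam1, 133 for Ccl21a, 66.5 for Ccr7, 43.1 for Cxcl13, 32.9 for Marco, 29.0 for Fcer2a, 25.2 for Cr2, 18.2 for Ccl19, 14.99 for Cxcr5 and 1.76 for Madcam1. The ranges of Glycam1 and Ccl21a stood clear of the next gene and Madcam1 stood clear at the bottom, whereas each neighbouring pair from Ccr7 down to Cxcr5 overlapped. The places of Ccl21a and Ccl19 are uncertain, because 71.6% and 52.0% of their 50-base stretches also occur in other annotated genes. Lengths were not corrected for this. In tumours Cxcl13 led at 11.3 CPM per kb, followed by Ccl21a at 0.996 and Ccr7 at 0.546, so the order of the groups was not the same.

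Tumours 14 and 21 were each among the highest 2 tumours for 7 of the 10 genes, tumour 4 for 3, and tumours 5, 24 and 27 for 1 each. Summed over the 8 genes without Glycam1 and Cxcl13, the tumours spanned 0.961 CPM (tumour 24) to 22.9 CPM (tumour 21), and epithelium from 573 to 777 CPM. Within the tumours, 3 genes had enough counts to be set against the list of their cell type, by Pearson's r of log2(CPM + 0.1) with the mean of the list. For Ccr7 and T cell genes r was 0.53 and Spearman's rho 0.45 (exact permutation, two-sided, n = 9; p = 0.134 and 0.230, adjusted over 3 relations 0.289 and 0.345), and r was 0.45 without tumours 1 and 21. For Cxcl13 and B cell genes r was 0.47 and rho 0.48 (exact permutation p = 0.212 and 0.194, adjusted 0.289 and 0.345), but r was -0.03 without tumours 14 and 21, so the relation rests on those. For Ccl21a and lymphatic endothelial genes r was 0.40 and rho 0.18 (exact permutation p = 0.289 and 0.644, adjusted 0.289 and 0.644), and r was 0.24 without tumours 5 and 24. None of the 3 passed, and a p that misses the threshold does not show that the measures are unrelated.

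Across all 12 libraries, the genes most like each of the 10 were looked for among 13616 candidates by Pearson's r of log2(CPM + 0.1), which mostly follows the gap between the groups and is given as a description. Cxcr5 was nearest to Ms4a1 (r 0.992), Pax5 (0.991) and Srpk3 (0.991). Ccr7 was nearest to S1pr4 (0.994), Cd5 (0.992) and Vat1l (0.989), and Ccl19 to Ffar1 (0.991), Cd5 (0.989) and Cyfip2 (0.988). For Fcer2a the nearest were Siglecg (0.986), Igkj5 (0.985) and Ms4a1 (0.985), and for Cr2 they were Taf9b, Lat (both 0.977) and Blk (0.975). For Ccl21a, Gm44745 (0.993) and Kmo (0.990) were nearest. Glycam1 was nearest to A430078G23Rik (0.982), Nfkbid and Gm1043 (both 0.981), and Marco to 2610507I01Rik (0.983), Gm8221 (0.982) and Gm17024 (0.980). Cxcl13 and Madcam1, the 2 genes whose groups overlapped, had the lowest nearest values: Rdh12 (0.916), Gm48793 (0.906) and Lmcd1 (0.901) for Cxcl13, and Fas (0.941), Ly6c2 (0.934) and Cd52 (0.931) for Madcam1.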

How the data were processed

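The authors deposited raw counts per gene for each library, made on GRCm38 with TopHat2 2.1.1, HTSeq 0.11.0 and FastQC 0.11.8 among the tools listed, per the submitters' processing notes. Not given in the sources used here were the annotation release, the strand setting and whether reads or pairs were counted. RNA came from a column kit and libraries were stranded, per the labels' protocols. The 10 genes, the gene lists, the motifs and the rule for naming genes were all chosen with earlier results of these data known.

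Counts were fitted on all 12 libraries by group with edgeR 4.0.16 (filterByExpr, trimmed mean of M values, robust quasi-likelihood test, Benjamini-Hochberg adjustment over 21456 genes, threshold 0.05) in R 4.3.3, and the code was tested on simulated data. SE was computed from F, as the size of the log2 fold change divided by its root. CPM carry no prior count, and relations used log2(CPM + 0.1) with exact permutation over 362880 pairings. DESeq2 1.42.0 and limma 3.58.1 were alternatives. Named were the 10 genes, from each list the 2 called genes of lowest adjusted p in the direction most called genes took and 1 in the other (where none was called, the 2 of highest level), the most abundant of each marker list, and the 3 nearest genes; others were chosen after their values were seen. A gene that the rule names is not reported here. Positions came from GENCODE M21, which held 54106 of the 54658 symbols, and promoters from RefSeq. Ccr7 and Cxcr5 had no promoter window. No 2 libraries of a group were copies, with a chi-square per degree of freedom of at least 24.1. Python 3.11.15 with pandas 2.3.3, scipy 1.17.1 and matplotlib 3.10.9 was used.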

Additional observations from a re-analysis of the deposited data

Results flagged for a closer look

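In 38 genes the highest or lowest of the 9 tumours was marked by its gap to the next tumour, divided by the whole range. The mark was set where this passed Dixon's 95% critical value, which chance passes in about 1 of 20 groups of normally distributed values. The CPM used were not on a log scale and were often skewed to high values, so that rate does not apply and the marks are a description. This marked 12 genes, all at the high end, and 10 of these marks were in tumour 21. Among the 10 lymph node genes, Ccl21a in tumour 21 had a gap of 0.504 of the range (3.28 CPM, next 1.64 CPM) and Ccr7 in tumour 21 one of 0.709 (3.73 CPM, next 1.25 CPM). Madcam1 in tumour 4 had 0.830 (4.11 CPM, next 0.724 CPM). The cell guidance receptor Gpr183 had 0.506 in tumour 21 (10.9 CPM), the BAFF receptor gene Tnfrsf13c 0.505 (3.90 CPM), Bank1 0.575 (15.7 CPM), Gcsam 0.674 (0.580 CPM) and Il21r 0.551 (15.5 CPM), all in tumour 21. In the same tumour the vessel gene Selp had 0.573 (8.95 CPM) and the stromal gene Coch 0.923 (0.954 CPM). The collagen gene Col3a1 had 0.918 in tumour 21, at 17738 CPM against 1883 CPM in the next tumour. The casein gene Csn3 had 0.742 in tumour 17, at 5340 CPM against 1381 CPM in the next.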

How the results depend on the processing

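All 172 log2 fold changes of the 10 genes under alternatives were below 0, and 170 stayed within the spread between replicates. The other 2 were from limma-voom, -7.95 for Ccl19 and -8.52 for Fcer2a. The median over the genes was -7.95 with limma-voom, -7.49 to -6.71 when leaving out 1 library, and -4.47 with at least 10 counts in 9 libraries, which kept 2 of the 10. The count of genes without overlap was 8 to 9 when leaving out 1 library, and 9 with plain library totals. Over all genes, DESeq2 called 3799 higher, and gave no adjusted p for 9834 genes; leaving out 1 library gave 1496 to 2753 lower and 506 to 2486 higher, with the lowest counts when 1 epithelium library was left out (1499, 1542 and 1496 lower; 506, 541 and 548 higher for libraries 1, 2 and 3). With at least 10 counts in 9 libraries, 2 genes of high endothelial venules and 1 of the germinal centre were lower, and 0 of the germinal centre were higher. Fewer genes were tested under that filter, which left out Chst4 and Gcsam. S1pr2 was still tested there but did not pass. No germinal centre gene was higher with upper quartile scaling, with no filter or with limma-voom (0 in each), and 0 to 1 were when leaving out 1 library. Sinus macrophage genes had 2 higher with DESeq2 and 0 to 2 when leaving out 1 library. Leaving out 1 library gave 3 to 5 lower lymphotoxin genes and 2 to 5 lower stroma genes. The relation of Ccl21a with lymphatic genes reversed, to r -0.37, with summed CPM; the cause was not tested. For Ccr7 r was 0.80 without tumour 4 and 0.20 with summed CPM. No paired analysis was made because the labels state no pairing between tumours and epithelium, and the label numbers are not known to mark animals. Counts of 0 to 12 in the tumours limit Ccl19, and counts of 0 to 15 limit Marco.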
